A study of Homo sapiens with 4 samples.

Results

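The genes examined here are those of the ATF4 amino acid response together with cytosolic tRNA synthetases, a list of 36 genes chosen by symbol among the 58735 genes of the deposited tables. Each symbol was found in exactly 1 row of each table. The list holds 7 regulators, 3 genes that act on the translation factor eIF2, 9 enzymes, 4 amino acid transporters and 13 synthetases. They were measured by poly-A RNA-seq in HaCaT cells, an established keratinocyte line from adult human skin that the labels spell HaCAT and give as wild type. The cells, grown in serum, received 200 pmol of either a control siRNA (siControl) or an siRNA against the m6A demethylase ALKBH5 (siALKBH5), with 2 libraries per group. The labels do not say which ALKBH5 siRNA was used, how long after transfection RNA was taken, or whether the libraries of a group came from separate cultures, so the p-values measure only the spread between these libraries, which may be technical.

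Cells that run short of an amino acid, or whose endoplasmic reticulum is stressed, phosphorylate eIF2. General translation then slows while the ATF4 mRNA is translated more efficiently through its upstream reading frames, and the ATF4 protein switches on genes for amino acid synthesis, amino acid import and tRNA charging. Because ATF4 itself is controlled largely at translation, the level of its mRNA and the levels of its targets can move separately. The same target genes also serve growing cells, since serine and glycine feed the folate cycle that supplies nucleotide synthesis.

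The libraries held between 16017502 and 18837807 counts, and the mitochondrial share was between 9.63% and 10.2%. ALKBH5 itself had 93.8 and 87.6 CPM (the counts of a gene scaled by library size and TMM factor) in siControl and 51.2 and 49.6 CPM in siALKBH5, a residual level of 55.5% (log2 fold change -0.85, standard error 0.05, adjusted p = 6.4e-15 by edgeR's quasi-likelihood test). Summed over 10 keratinocyte markers, the level was 18970 and 18550 CPM in siControl and 24440 and 24490 CPM in siALKBH5. KRT5, KRT14, KRT6A and SFN were higher, KRT17, TP63, ITGA6 and ITGB4 were lower, and most of the difference in the sum was KRT5, with a mean of 7034 CPM in siControl and 11250 CPM in siALKBH5. Of 5 fibroblast markers, COL1A2 and PDGFRB were at 0 in every library and COL3A1 had at most 3 counts. The sum lay between 17.4 and 18.9 CPM, most of it COL1A1, with 267 to 310 counts. LUM, with 15 to 33 counts, was lower in siALKBH5 (log2 fold change -1.08, standard error 0.37, adjusted p = 0.021 by edgeR). TYR was at 0 among 4 melanocyte markers, whose sum lay between 2.72 and 3.89 CPM, most of it PMEL, with 38 to 61 counts. The sum of 6 immune and endothelial markers lay between 32.8 and 35.6 CPM, with PTPRC, CD68 and PECAM1 at 2 counts or fewer in each library, while VWF and CDH5 had between 147 and 501 counts. In bulk RNA, fewer cells of a kind and less RNA per cell cannot be told apart.

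A C/EBP-ATF response element, the DNA sequence that ATF4 binds as a dimer with C/EBP proteins, has the core letters TGATGNAA. These letters were searched on both strands of RefSeq promoter windows (build GRCh38.p14), which run from 250 bases before to 50 bases after each listed start. Of the 36 genes, 30 had a window, and 14 of these (46.7%) held the letters, against 4.46% of all 27305 genes with a window. The element was defined on genes of this kind, so this is a description of the list and not a finding of the RNA-seq data. The matching genes were CEBPG, CHAC1, ASNS, MTHFD1L, SLC3A2, SLC1A5, SLC7A1, AARS, CARS, GARS, IARS, MARS, NARS and TARS. The sites of the genes with larger changes, of genes that were lower or not called, and of ASNS, the classical target, are shown first, since the results below return to them. Each is read on the strand of its gene with 9 bases on each side, and the capitals mark the searched letters, which appear in reverse complement where the site lies on the opposite strand.
MTHFD1L (chr6:150866348-150866373, plus strand): cgccggctcTGATGCAAtcgcgccgg
SLC7A1 (chr13:29595665-29595690, minus strand): gcgcactgcTGATGAAAcctggcgcc
SLC1A5 (chr19:46784895-46784920, minus strand): ggaagtggcTGATGCAAgctgtccag
GARS (chr7:30594836-30594861, plus strand): acgcggcgaTTTCATCAtgctccgag
MARS (chr12:57488055-57488080, plus strand): cggttccggTTGCATCAgcgagggat
IARS (chr9:92293694-92293719, minus strand): ttcagcgcgTTGCATCAcctccgtgc
NARS (chr18:57621806-57621831, minus strand): tacgctctcTGATGCAAcgccggaat
TARS (chr5:33440958-33440983, plus strand): gcctttcgaTTGCATCAgctggtcca
CEBPG (chr19:33374062-33374087, plus strand): cgcggcgtcTGATGCAAcctgccggc
CHAC1 (chr15:40953253-40953278, plus strand): cccctgccgTTGCATCActcctgcca
ASNS (chr7:97872460-97872485, minus strand): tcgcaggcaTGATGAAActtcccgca

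After ALKBH5 knockdown, most of the enzymes, transporters and synthetases were higher while ATF4 mRNA was level. The other regulators went both ways, with TRIB3 and CEBPB higher, DDIT4 and DDIT3 lower, and CEBPG and CHAC1 not called. The call of DDIT3 was lost with DESeq2 in place of edgeR. Of the 35 genes with enough counts to be tested, 23 were higher and 3 lower with an adjusted p below 0.05 by edgeR, while 9 were not called. Over all 15075 genes tested, 19.3% were higher and 17.3% were lower by the same rule. These genes are counted more deeply than most, which makes small changes easier to call. Among the 10416 genes with a mean of at least 100 counts, the background was 24.8% higher and 21.6% lower, and 34 of the 36 genes, including all 26 that were called, reached that depth. The list was chosen with earlier results of these data known, so its shares describe the list and are not a test of it. The changes were mostly small, with a median log2 fold change of 0.15 against -0.0081 over all genes. When a log2 fold change of 1 or more in size was also required, MTHFD1L alone remained as higher and none as lower, against 1.62% and 1.3% of all genes. Proliferation markers, read here as mRNA, also changed. All 10 (MKI67, TOP2A, CCNA2, CCNB1, CDK1, PCNA, MCM2, MCM5, BIRC5 and PLK1) were higher, with a summed level of 1146 and 1145 CPM in siControl and 1911 and 1895 CPM in siALKBH5 and a median log2 fold change of 0.75. The study's own assays found the proliferation of HaCaT cells unaltered after ALKBH5 knockdown. Those assays did not read mRNA, and whether their siRNA and time matched these libraries is not known. The study also reported no significant change of Ki67 staining in the wound-edge epidermis of knockout mice. The part of the markers in the changes of the enzymes, transporters and synthetases was not tested.

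**Figure D1:**
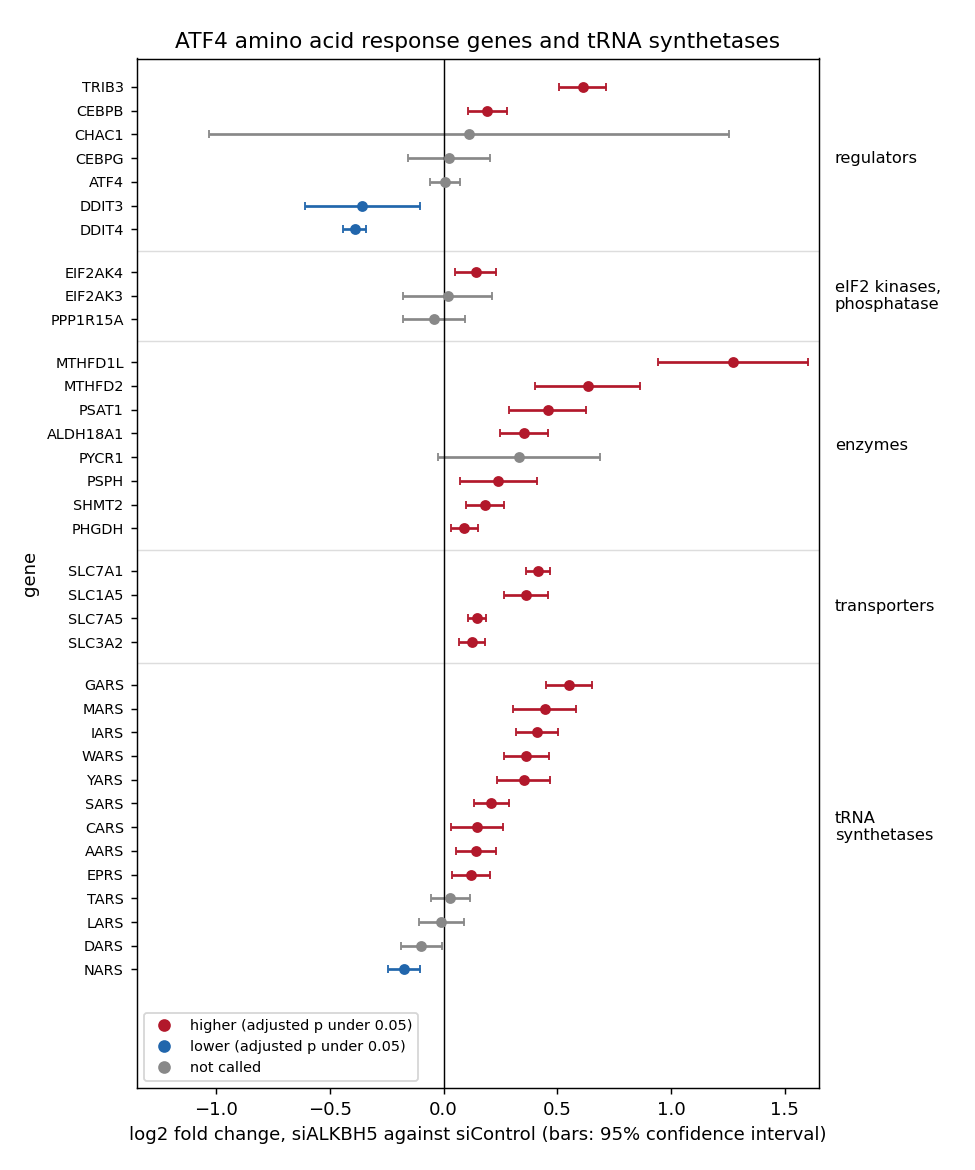
Log2 fold change of siALKBH5 against siControl (x axis) for the 35 tested genes (y axis), grouped by role, with 95% confidence intervals from edgeR's quasi-likelihood model as bars. Red points were higher, blue points lower and grey points not called. MTHFD1L lies farthest to the right at 1.27, all 4 transporters are red, and DDIT3, DDIT4 and NARS are the blue points.

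Among the regulators, ATF4 (ENSG00000128272, chr22:39519695-39522685, plus strand), the transcription factor at the centre of the response, had 203 and 206 CPM in siControl and 205 and 206 CPM in siALKBH5. The groups overlapped, and the 95% confidence interval of the log2 fold change ran from -0.06 to 0.07, so a change of more than about that size in either direction lies outside the interval. TRIB3, a pseudokinase that is an ATF4 target and dampens ATF4 activity, had 56.5 and 59.0 CPM in siControl and 88.1 and 88.5 CPM in siALKBH5. Both knockdown libraries lay above both control libraries, and the gap was far wider than the spread within either group (log2 fold change 0.61, standard error 0.05, adjusted p = 5.2e-12 by edgeR's quasi-likelihood test).

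DDIT4, which encodes the mTORC1 inhibitor REDD1, went the other way. It had 550 and 561 CPM in siControl and 431 and 416 CPM in siALKBH5, with no overlap (log2 fold change -0.39, standard error 0.02, adjusted p = 8.7e-15 by edgeR). An antisense gene, DDIT4-AS1, shares 41.2% of the exonic bases of DDIT4 and had 0 counts in every library. Without the strand setting of the counting, these 0 counts do not show how reads in the shared bases were assigned. DDIT3, which encodes the pro-apoptotic stress factor CHOP, had 14.1 and 12.4 CPM in siControl and 10.8 and 9.78 CPM in siALKBH5 (log2 fold change -0.36, standard error 0.13, adjusted p = 0.024 by edgeR). The groups did not overlap, but the lower of the control libraries and the higher of the knockdown libraries lay close together, and the call was lost without siControl replicate 1 (-0.26) and without siALKBH5 replicate 2 (-0.29). Of the exonic bases of DDIT3, 39.6% are also exonic in neighbouring genes, chiefly the synthetase gene MARS on the opposite strand, and the strand setting of the counting is not given in the sources used here.

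CEBPB, a C/EBP factor that pairs with ATF4, had 101 and 96.8 CPM in siControl and 116 and 110 CPM in siALKBH5 (log2 fold change 0.19, standard error 0.04, adjusted p = 0.00055 by edgeR). CEBPG, the other C/EBP factor of the list, had 23.8 and 23.0 CPM in siControl and 25.3 and 22.1 CPM in siALKBH5, where the control libraries lay between the knockdown libraries. CHAC1, a glutathione-degrading enzyme that is a sensitive marker of strong ATF4 and CHOP activity, was barely detected. Its counts were 7 and 12 in siControl and 7 and 14 in siALKBH5, and the interval of its log2 fold change, from -1.03 to 1.25, was too wide to exclude a change of either sign.

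Upstream of ATF4, EIF2AK4 (the eIF2 kinase GCN2, which senses uncharged tRNA) had 85.2 and 84.9 CPM in siControl and 95.1 and 92.3 CPM in siALKBH5 (log2 fold change 0.14, standard error 0.04, adjusted p = 0.012 by edgeR). The knockdown libraries were higher by 10.2% on average, and the call was lost without siControl replicate 2 or without siALKBH5 replicate 1 (log2 fold changes 0.14 and 0.12). EIF2AK3, the kinase PERK of the endoplasmic reticulum, had between 18.6 and 19.1 CPM in all libraries, with an interval from -0.18 to 0.21. PPP1R15A, the phosphatase subunit GADD34 that reverses eIF2 phosphorylation and is a further stress target, had between 41.0 and 44.8 CPM, with an interval from -0.18 to 0.09.

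**Figure D2:**
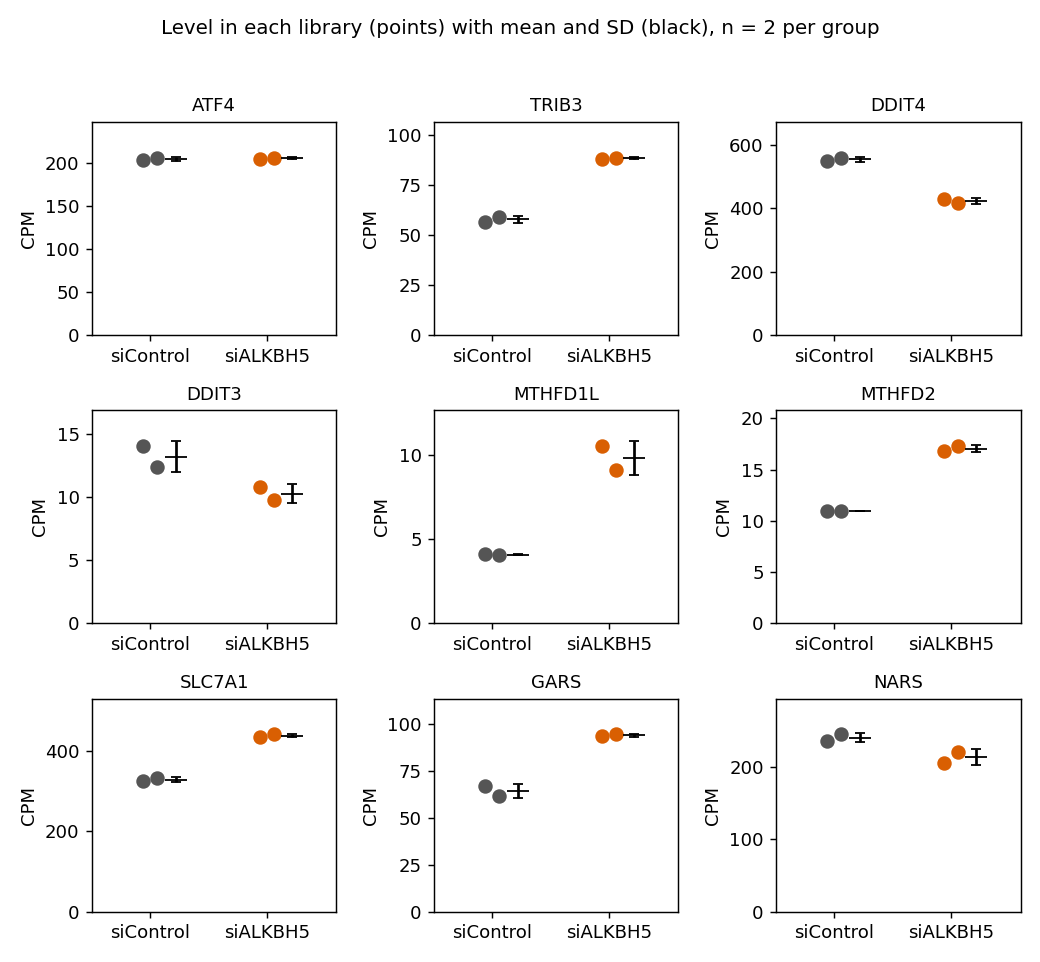
CPM in each library (points, y axis from 0) by group (x axis) for 9 genes, with the mean and SD of the group in black (n = 2). ATF4 is level, TRIB3, MTHFD1L, MTHFD2, SLC7A1 and GARS are higher in both siALKBH5 libraries, and DDIT4, DDIT3 and NARS are lower in both.

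The enzymes gave the highest changes of the list. Of the 8 tested, 7 were higher and PYCR1 was not called, with a median log2 fold change of 0.34. MTHFD1L and MTHFD2, the mitochondrial folate enzymes that turn the carbon unit of serine into formate, rose most. MTHFD1L had 4.10 and 4.06 CPM in siControl and 10.6 and 9.12 CPM in siALKBH5, or 241% of control (log2 fold change 1.27, standard error 0.16, adjusted p = 1.1e-07 by edgeR). MTHFD2 had 11 CPM in each siControl library and 16.8 and 17.3 CPM in siALKBH5, or 155% (log2 fold change 0.63, standard error 0.11, adjusted p = 3.4e-05 by edgeR). For both genes the gap between the groups was several times the spread within them. The exons of MTHFD2 share 33.2% of their bases with other genes, chiefly SLC4A5 on the opposite strand, which had at most 4 counts in any library. How reads in the shared bases were assigned is not known.

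The enzymes of the serine pathway upstream of these had smaller log2 fold changes. PSAT1, the phosphoserine aminotransferase, had 21.1 and 22.5 CPM in siControl and 30.9 and 28.9 CPM in siALKBH5 (log2 fold change 0.46, standard error 0.08, adjusted p = 4.0e-05 by edgeR). PSPH, the phosphatase of the last step, had 23.2 and 23.0 CPM in siControl and 26.7 and 27.9 CPM in siALKBH5 (log2 fold change 0.24, standard error 0.08, adjusted p = 0.022 by edgeR). Neither gene overlapped between the groups, but the call of PSPH was lost with either siControl replicate or with siALKBH5 replicate 2 left out, at log2 fold changes between 0.21 and 0.25. PHGDH, which commits glycolytic carbon to serine, and SHMT2, which splits serine in mitochondria, had log2 fold changes of 0.09 and 0.18, and the call of PHGDH was lost without siControl replicate 1 (0.07) or siALKBH5 replicate 1 (0.07). From entry to end, the log2 fold changes of PHGDH, PSAT1, PSPH, SHMT2, MTHFD2 and MTHFD1L were 0.09, 0.46, 0.24, 0.18, 0.63 and 1.27, with no steady order before the mitochondrial folate steps, and differences from gene to gene were not tested.

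In proline synthesis, ALDH18A1, which makes the precursor from glutamate, had 64.9 and 62.6 CPM in siControl and 78.4 and 84.7 CPM in siALKBH5 (log2 fold change 0.35, standard error 0.05, adjusted p = 1.3e-06 by edgeR). PYCR1, which completes proline in mitochondria, had 4.34 and 5.95 CPM in siControl and 6.64 and 6.38 CPM in siALKBH5, and its interval ran from -0.02 to 0.69. ALDH18A1 was clearly apart between the groups, whereas the control libraries of PYCR1 differed from each other by more than siControl replicate 2 differed from the knockdown libraries. PYCR1 passed the threshold without siControl replicate 2, at 0.58.

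ASNS, asparagine synthetase and the classical ATF4 target, had too few counts to be tested. Its counts, 8 and 3 in siControl and 3 and 17 in siALKBH5, fell under the filter on low counts. In GENCODE 29, whose identifiers and coordinates match all 58735 genes of the tables, the same-strand transcript gene AC079781.5 shares 44.6% of the exonic bases and 96.1% of the coding bases of ASNS (ENSG00000070669, chromosome 7, minus strand). That gene had between 0 and 3 counts in each library. The part of this overlap in the low counts of ASNS was not tested, and no change is given for the gene.

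All 4 amino acid transporters were higher. Their summed level was 1823 and 1844 CPM in siControl and 2109 and 2115 CPM in siALKBH5. SLC7A1, the carrier CAT1 for arginine and lysine, had 324 and 333 CPM in siControl and 435 and 441 CPM in siALKBH5 (log2 fold change 0.41, standard error 0.03, adjusted p = 1.0e-14 by edgeR). SLC1A5, the glutamine carrier ASCT2, had 75.2 and 72.4 CPM in siControl and 91.6 and 98.1 CPM in siALKBH5 (log2 fold change 0.36, standard error 0.05, adjusted p = 2.2e-07 by edgeR). SLC7A5 and SLC3A2 encode the chains of the heterodimer LAT1-4F2hc, which imports leucine and other large neutral amino acids. SLC7A5 had 1125 and 1132 CPM in siControl and 1248 and 1249 CPM in siALKBH5 (log2 fold change 0.15, standard error 0.02, adjusted p = 1.1e-07 by edgeR). SLC3A2 had 299.5 and 306 CPM in siControl and 334 and 326 CPM in siALKBH5 (log2 fold change 0.13, standard error 0.03, adjusted p = 0.00048 by edgeR). The chains of LAT1 thus had similar small log2 fold changes, and those of SLC7A1 and SLC1A5 were larger, with 95% confidence intervals (0.36 to 0.47 and 0.26 to 0.46) above that of SLC7A5 (0.11 to 0.18).

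The cytosolic synthetases, which load each amino acid onto its tRNA, split by enzyme. Of the 13, 9 were higher, NARS was lower, and DARS, LARS and TARS were not called. GARS, the glycyl enzyme, which also serves mitochondria, had 66.7 and 61.3 CPM in siControl and 93.2 and 94.3 CPM in siALKBH5 (log2 fold change 0.55, standard error 0.05, adjusted p = 5.0e-11 by edgeR). MARS, the methionyl enzyme, had 33.0 and 35.6 CPM in siControl and 46.2 and 47.2 CPM in siALKBH5 (log2 fold change 0.44, standard error 0.07, adjusted p = 3.0e-06 by edgeR). IARS, the isoleucyl enzyme, had 76.0 and 77.8 CPM in siControl and 100.2 and 104 CPM in siALKBH5 (log2 fold change 0.41, standard error 0.05, adjusted p = 5.2e-09 by edgeR). In each of these the knockdown libraries stood clear of the control libraries.

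WARS, the tryptophanyl enzyme, had 69.4 and 67.9 CPM in siControl and 91.2 and 85.3 CPM in siALKBH5 (log2 fold change 0.36, standard error 0.05, adjusted p = 2.9e-07 by edgeR). YARS, the tyrosyl enzyme, had 48.3 and 47.1 CPM in siControl and 60.5 and 61.2 CPM in siALKBH5 (log2 fold change 0.35, standard error 0.06, adjusted p = 8.3e-06 by edgeR). SARS, AARS, CARS and EPRS were higher by smaller amounts, with log2 fold changes of 0.21, 0.14, 0.15 and 0.12. The call of SARS held with each library left out, whereas the calls of AARS, CARS and EPRS were lost in some of these fits, at log2 fold changes between 0.10 and 0.14. EPRS lost its call whichever library was left out.

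NARS, the asparaginyl enzyme, was the exception. It had 235 and 245 CPM in siControl and 206 and 221 CPM in siALKBH5, with no overlap (log2 fold change -0.17, standard error 0.03, adjusted p = 0.00010 by edgeR), and its call held whichever library was left out, at log2 fold changes from -0.22 to -0.12. DARS, the aspartyl enzyme, leaned the same way with 104 and 100.1 CPM in siControl and 98.2 and 92.4 CPM in siALKBH5, but did not pass the test (adjusted p = 0.084 by edgeR). It passed without siALKBH5 replicate 1, at -0.14. LARS and TARS, the leucyl and threonyl enzymes, had intervals from -0.11 to 0.09 and from -0.06 to 0.11, and their groups overlapped.

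Levels can be compared between genes only per length, so TPM (the same kind of scaling after division by the listed gene length) were computed. The listed length counts every annotated exonic base of a gene, which can exceed the length of the mRNA in these cells. Orders between genes rest on these lengths. In siControl, DDIT4 had the highest level of the list at 779 ± 11.5 TPM (SD, n = 2), above SLC7A5 at 686 ± 4.07 TPM. In siALKBH5 this order was turned, with 590 ± 14.9 TPM for DDIT4 and 754 ± 0.909 TPM for SLC7A5. ATF4 followed in both groups, at 235 ± 2.69 and 234 ± 0.490 TPM. Of the 13 synthetases of the list, NARS was the highest in both groups, at 169 ± 4.91 and 149 ± 7.17 TPM, while the lowest was MARS in siControl (14.1 ± 0.781 TPM, CARS 16.2 ± 0.653) and CARS in siALKBH5 (17.8 ± 0.707 TPM, MARS 19.0 ± 0.241). This switch depends on the listed lengths, 7028 bases for MARS and 10037 for CARS, of which 2862 and 2605 are coding. In CPM, MARS was below CARS in both groups (means of 34.3 against 56.3 in siControl and 46.7 against 62.2 in siALKBH5). In siControl, NARS and SLC3A2 (169 ± 2.84 TPM) did not differ beyond their spread, nor did DDIT3, LARS and PSAT1, which lay between 28.7 and 29.2 TPM. MTHFD1L remained among the lowest genes in both groups, at 2.34 ± 0.0123 and 5.61 ± 0.588 TPM, below MTHFD2 at 6.52 ± 0.0180 and 10.0 ± 0.194 TPM.

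**Figure D3:**
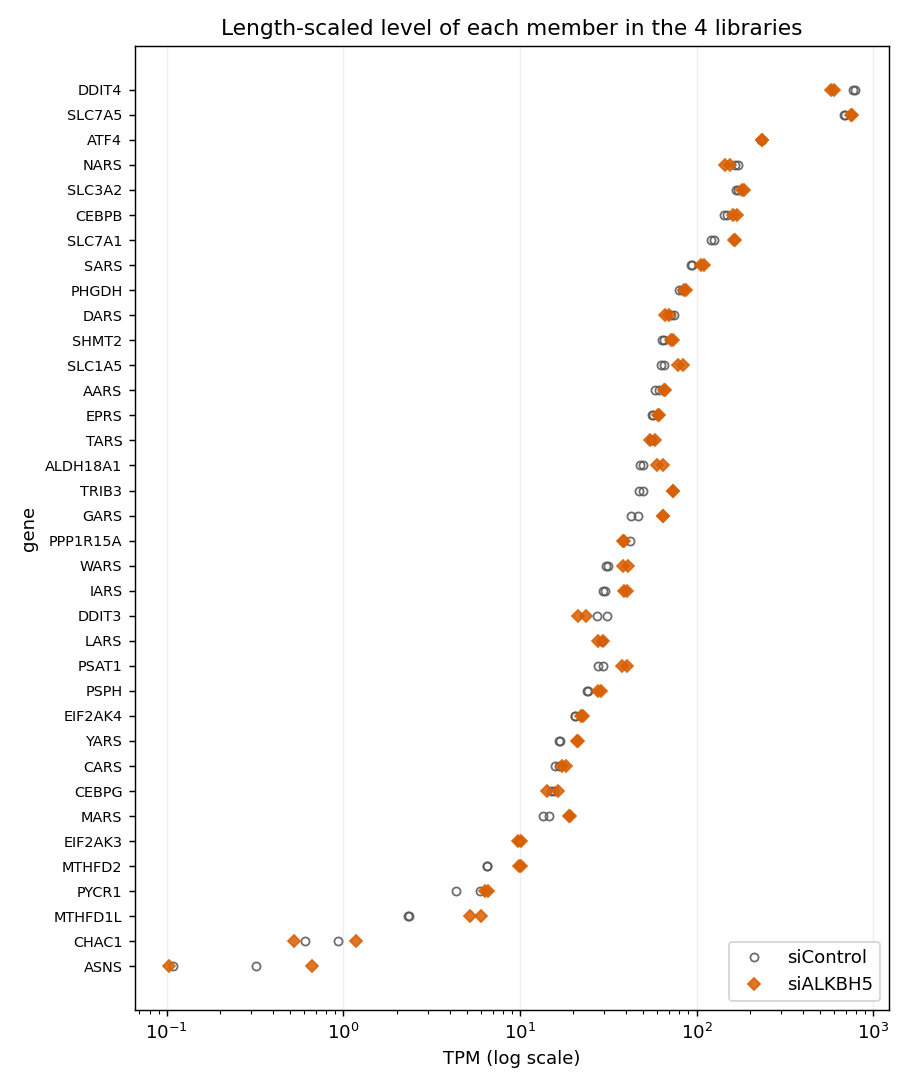
TPM on a log axis (x) of each of the 36 genes (y, ordered by the siControl mean) in the 2 siControl libraries (open circles) and the 2 siALKBH5 libraries (filled diamonds). DDIT4 and SLC7A5 are at the top and change places between the groups, and CHAC1 and ASNS at the bottom scatter most between libraries of a group.

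Genes of the list with and without the letters in a window gave similar shares of calls. Over all genes tested, the shares were 19.3% higher and 17.3% lower. Of the 14 genes with the letters in a window, 9 were higher, 1 (NARS) was lower, 3 (CEBPG, CHAC1 and TARS) were not called and ASNS was not tested. Of the 16 genes with a window but no match, 11 were higher, 2 were lower and 3 were not called. The median log2 fold changes were 0.15 and 0.14. MTHFD1L and SLC1A5 share TGATGCAA with NARS and CEBPG, and MARS and IARS share its reverse complement with TARS and CHAC1. DDIT3, DDIT4 and TRIB3 had no match. For these and every other gene without a match, this says only that the letters are not in these short windows. The part of the element in the changes was not tested.

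**Figure D4:**
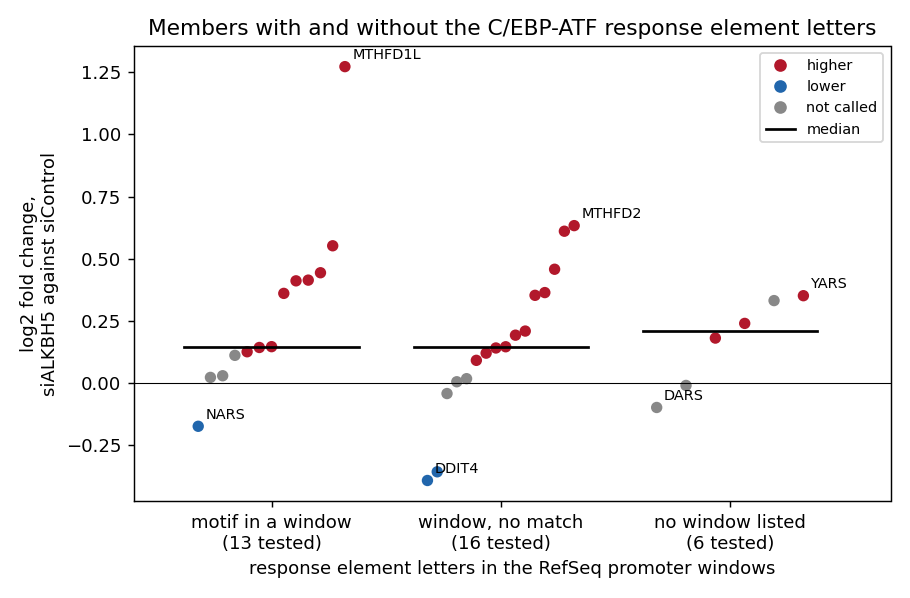
Log2 fold change of siALKBH5 against siControl (y axis) for the 35 tested genes, split by whether a RefSeq promoter window of the gene holds the response element letters, does not hold them, or is not listed (x axis), with the median of each class as a line. The classes with and without the letters span similar ranges, from -0.17 to 1.27 and from -0.39 to 0.63.

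The rest of the pathway was described from 5 further lists with 83 genes, of which 75 were tested. Of these, 26 were higher, 10 were lower and 39 were not called, and their median log2 fold change was 0.09. The counts of each list are to be read against the 19.3% higher and 17.3% lower of all genes, and the named genes are given for their own values. Among 25 other known ATF4 targets, 19 were tested, and the calls again went both ways, with 7 higher and 6 lower. The highest were SLC1A4, a carrier of serine and alanine (log2 fold change 1.28, standard error 0.08, adjusted p = 1.0e-14 by edgeR), with 16.5 and 17.6 CPM in siControl and 40.4 and 42.4 CPM in siALKBH5, and CTH, which makes cysteine (log2 fold change 1.28, standard error 0.14, adjusted p = 3.4e-09 by edgeR), with 6.39 and 5.67 CPM in siControl and 15.6 and 13.6 CPM in siALKBH5. SLC7A11, the cystine carrier, rose by a log2 fold change of 0.76. KLHL24, which encodes a ubiquitin ligase adaptor, fell by 0.54 on the log2 scale, from 112 and 107 CPM in siControl to 74.5 and 76.3 CPM in siALKBH5. The others that were lower were ATF5, JDP2, CEBPA, SLC38A2 and BCAT1, with log2 fold changes from -0.46 to -0.09.

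Among the 10 genes of the remaining cytosolic synthetases and the scaffold proteins that hold synthetases together, 3 were higher and 1 was lower. VARS, the valyl enzyme, had 20.7 and 22.5 CPM in siControl and 34.0 and 33.1 CPM in siALKBH5 (log2 fold change 0.63, standard error 0.08, adjusted p = 1.1e-07 by edgeR). FARSB and KARS had log2 fold changes of 0.36 and 0.18. QARS, the glutaminyl enzyme, had -0.11 and lost its call without siControl replicate 2 (-0.09) and without siALKBH5 replicate 1 (-0.07). None of the scaffold genes AIMP1, AIMP2 and EEF1E1 was called. The genes were also split by the multisynthetase complex, a grouping made after the values were seen and given with no test. Of its 11 components, 4 were higher and 1 was lower, with a median log2 fold change of -0.01. Of the 12 enzyme genes outside it, 8 were higher and 1 was lower, with a median of 0.18. The 11 include the scaffold genes AIMP1, AIMP2 and EEF1E1, which are not enzymes, so the sets are not alike. Over all genes tested, 19.3% were higher and 17.3% were lower.

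Of the 17 mitochondrial synthetases, 5 were higher and none was lower by edgeR, and the value of PARS2, -0.14, was the only one below 0 and was not called. With 19.3% of all genes higher, and 24.8% of the deeply counted ones, this share is near the background and is no result about these enzymes. AARS2, VARS2 and TARS2 had log2 fold changes of 0.35, 0.31 and 0.27, and IARS2 had 0.09. Of 13 other genes of the eIF2 pathway, 4 were higher and 2 were lower. The subunits EIF2B3 and EIF2B2 of eIF2B, which recharges eIF2 with GTP, had log2 fold changes of 0.73 and 0.45, GCN1, the ribosome-bound partner of GCN2, had 0.25, and EIF2AK1, a further eIF2 kinase, had 0.14. EIF2S1, the subunit of eIF2 that is phosphorylated, had -0.14, and IMPACT, an inhibitor of GCN2, had -0.19. Both lost the call without siControl replicate 2 and without siALKBH5 replicate 1, where IMPACT stood at -0.12 and -0.11.

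Of 18 other folate, proline and glutamate enzymes, 16 were tested, 7 were higher and 1 was lower. TYMS, which makes thymidylate from a folate carbon, had 3.66 and 4.002 CPM in siControl and 7.87 and 7.96 CPM in siALKBH5 (log2 fold change 1.04, standard error 0.17, adjusted p = 8.5e-06 by edgeR). Of the exonic bases of TYMS, 46.6% are also exonic in neighbouring genes, chiefly ENOSF1 on the opposite strand, which had 150 to 170 counts. MTHFD1, a folate enzyme outside mitochondria, had a log2 fold change of 0.53, and GOT1, an aspartate aminotransferase, had 0.43. GLUL, which makes glutamine, was the lower one, at -0.26. Of 12 stress genes of the endoplasmic reticulum outside the ATF4 branch, 3 were higher (HSPA5, HSP90B1 and PDIA4, all chaperones or folding enzymes) and 2 were lower (DNAJB9 and SEL1L), which are shares near those of all genes.

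**Figure D5:**
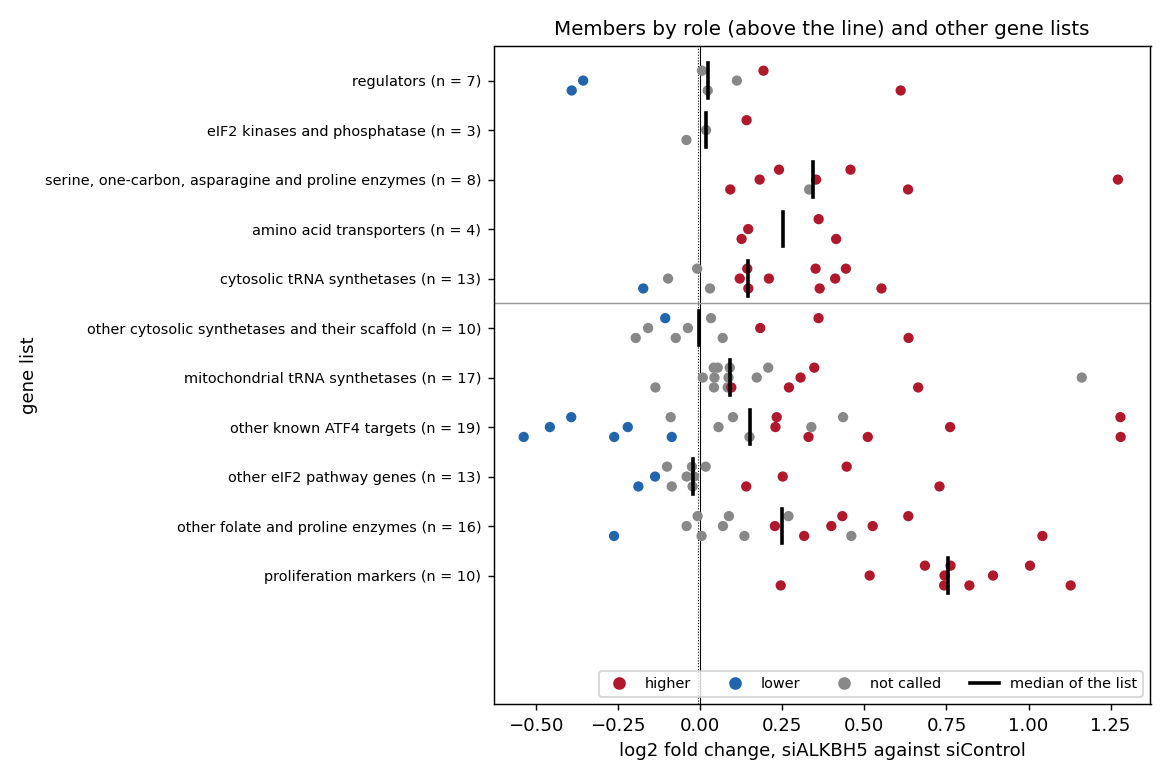
Log2 fold change of siALKBH5 against siControl (x axis) for every tested gene of the lists shown (y axis), with the list's median as a black bar, the median of all genes as a dotted line and n as the number tested. The regulators and the other ATF4 targets hold blue points on the left as well as red points on the right, whereas the transporters and the 10 proliferation markers are all red.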

How the data were processed

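RNA-seq was performed on 4 HaCaT libraries, 2 siControl and 2 siALKBH5. The authors deposited raw counts per gene, 1 table per pair of libraries. HISAT2 2.0.5, featureCounts 1.5.0-p3, DESeq2 1.20.0 and the build hg38 are named in the submitters' processing notes. Gene lengths are the deposited lengths in bases. The deposited FPKM and the authors' columns of fold changes and p-values were not used.

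Counts were joined by gene identifier, filtered with filterByExpr and scaled with TMM. The groups were compared without covariates by glmQLFit and glmQLFTest of edgeR 4.0.16 (R 4.3.3), and p-values were adjusted over all genes tested (Benjamini-Hochberg). TMM factors lay between 0.992 and 1.01 and the common biological coefficient of variation was 0.0253. Standard errors and 95% confidence intervals come from the same model. The steps were tested on simulated data. The 2 libraries of a group differed by more than counting error (chi-square per degree of freedom 1.71 and 1.81). Depth sets precision, and genes under about 20 counts have wide intervals. Alternatives were DESeq2 1.42.0, DESeq2 size factors, library size only, other filters, the replicate block and each library left out. Exonic overlaps come from GENCODE 29.

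Members and lists were chosen with earlier results of these data known. Per-library values are given for ATF4, DDIT3, ASNS and up to 5 called members per role with the largest absolute change, and up to 4 called genes are named from each other list. Other genes, such as PHGDH, DARS, IARS2, EIF2AK1, EIF2S1, PARS2, GLUL and those of endoplasmic reticulum stress, were named after their values were seen, to account for a count. Some genes that this rule would name are not reported here.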

Additional observations from a re-analysis of the deposited data

How the results depend on the processing

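With 2 libraries per group, some calls (AARS, CARS, DDIT3, EIF2AK4, EPRS, PHGDH and PSPH) were lost when a library was left out. The calls of SLC7A5, SLC3A2, NARS, SHMT2, CEBPB and SARS were kept. CHAC1, near the detection limit, could not be judged at this depth. ASNS had too few counts to be tested, and the part of its overlap with AC079781.5 in this was not tested. Of the 26 calls among the 36 genes, 26 were kept with DESeq2 size factors, with no filter, with a minimum mean of 10 counts and with the replicate block, 23 with library size only (CARS, EPRS and PHGDH lost, DARS added as lower), 19 with DESeq2 (AARS, CARS, DDIT3, EIF2AK4, EPRS, PHGDH and PSPH lost) and 21 to 23 with 1 library left out. No call changed sign. Library numbers were shared between the groups, and each deposited table held 1 library of each group. The deviations of same-numbered libraries correlated at 0.067 over 13626 genes, and the numbers were not treated as pairs in the main fit. Counting error lowers such a correlation, so it cannot exclude pairing. The replicate block gave 23 higher and 4 lower genes of the list, DARS being added, with a median log2 fold change of 0.1462, and 3091 higher and 2831 lower genes in all. Medians with DESeq2, with no filter and in fits with a library left out also took in genes that the main fit did not test, such as ASNS. Such medians do not cover the same genes as the main ones, and other causes of the differences below were not tested.

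Under DESeq2, 1444 genes of all were lower, and 130 were higher and 59 lower with both thresholds. The median of the 36 genes was 0.1677, the other cytosolic synthetases had 0 lower and a median of 0.0009, the mitochondrial synthetases had 3 higher, the other ATF4 targets had a median of 0.1167, the other eIF2 genes had 0 lower, and the 5 lists together had 5 lower. DESeq2 size factors moved the median of the other cytosolic synthetases to 0.0004. With library size only, the medians were 0.1243 for the tested genes of the list, 0.0678 for mitochondrial synthetases, -0.0455 for other eIF2 genes and 0.0651 for the lists together, and ATF4 and EIF2AK3, which were not called, turned to -0.0168 and -0.0044. With no filter, the medians were 0.1704 for the 36 genes, 0.0042 for other cytosolic synthetases and 0.1228 for other ATF4 targets, and 0 other eIF2 genes were lower.

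Leaving out each library in turn gave medians from 0.1593 to 0.1858 for the 36 genes, from -0.0354 to 0.0473 for other cytosolic synthetases (0 to 2 lower), from 0.1042 to 0.1226 for mitochondrial synthetases, from 0.171 to 0.2426 for other ATF4 targets, from 0.193 to 0.2609 for other folate and proline enzymes (1 to 2 lower) and from 0.0853 to 0.104 for the lists together (6 to 10 lower, with 6 without siControl replicate 2 and without siALKBH5 replicate 1). Of the other eIF2 genes, 0 to 2 were lower. Genes that were not called and took either sign were ATF4 (-0.0016 to 0.0152), CEBPG (-0.0821 to 0.1177), CHAC1 (-0.5561 to 0.6103), EIF2AK3 (-0.0007 to 0.0418), LARS (-0.0578 to 0.045), PPP1R15A (-0.1071 to 0.024) and TARS (-0.011 to 0.0704).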

Other observations

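PRODH, proline dehydrogenase, which degrades proline, differed between the siALKBH5 libraries more than almost any other gene of its depth. Its counts were 174 and 260 in siControl but 41 and 556 in siALKBH5, and it was not called (adjusted p = 0.41 by edgeR's quasi-likelihood test). Of 10416 genes with a mean of at least 100 counts, 4 differed by more than a log2 ratio of 1 between the siALKBH5 libraries, PRODH among them, and 5 between the siControl libraries. None of the ATF4 and synthetase genes of the list was among either set. PRODH was singled out after its values were seen.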
